A study of Homo sapiens with 12 samples.

Results

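The 5 genes described here act at the G1 to S step of the cell cycle: CCND3 (cyclin D3), the cyclin-dependent kinases CDK4, CDK6 and CDK2, and CDKN1B (the inhibitor p27Kip1). The rule is a list of names and holds no threshold on a measured value, and all 5 were rows of the deposited expression table, out of 9529 genes. The cells were NOMO-1, an established human acute myeloid leukemia line of monocytic type, carrying a lentiviral hairpin labelled shNS, which served as the control, or 1 of 2 hairpins against ALKBH5, an RNA demethylase that removes N6-methyladenosine. All cells had been selected with puromycin, and all were placed in actinomycin D, a DNA-binding drug that stops transcription, for 0, 8 or 12 h. Poly(A) RNA was sequenced in 12 libraries, in 6 groups of 2. The 0 h groups hold cells not yet exposed to the drug for any time, so they give the level at which the fall began. Each hairpin line was measured once at each time, and the headers call the lines D and E, so the 2 knockdown libraries of a group come from different hairpins. Nothing in the labels says that the 2 shNS libraries came from separate cultures, and the p-values then speak only to the scatter among these libraries, which may be technical.

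Background on the pathway helps to place the 5 genes. D-type cyclins bind and activate CDK4 and CDK6, which phosphorylate the retinoblastoma protein and release E2F factors that switch on genes of DNA synthesis. CDK2, with cyclin E and then cyclin A, completes that phosphorylation and drives entry into S phase. p27Kip1 inhibits the CDK2 complexes and is itself bound by cyclin D complexes, and its amount is set in large part by protein turnover through the SKP2 ligase. Cyclin D3 and CDK6 are the D cyclin and partner kinase most associated with blood cells, and CDK6 is a known dependency of acute leukemias that carry a KMT2A rearrangement.

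The values are a normalised signal per gene. By library, 46 ERCC spike-in RNAs had a median signal of 29.9 to 33.1, whereas the summed gene signal fell from 826000 to 953211 at 0 h to 143765 to 193639 at 12 h, so a fall over time is read per unit of spike-in. Single spike-ins were less even than their median: at 12 h their signal was 0.0580 to 2.33 times that at 0 h. Counts were not given, so the depth behind each value is unknown. The targeted gene, ALKBH5, had a 0 h signal of 84.3 and 78.6 in the shNS pair and of 25.4 and 21.2 in lines D and E, and it was lower than shNS in both lines at 8 and 12 h as well. Of 12 myeloid and monocytic markers, 7 were rows of the table (PTPRC, SPI1, CD33, LYZ, CD68, ITGAM and CEBPA), with a summed 0 h signal of 692 to 1081 by library. No erythroid (of 5), epithelial (of 4) or fibroblast (of 3) marker was a row. MPO, CSF1R, CD14, FCGR1A and KIT were not among the rows analysed.

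CCND3, the D cyclin, was the 1 gene of the 5 whose knockdown and control libraries stood apart at all times. At 0 h the shNS pair had signals of 349 and 357, and lines D and E had 1114 and 835. At 8 h both shNS libraries stood at 187, against 476 and 435 for the lines. At 12 h the shNS pair had 52.2 and 51.1, and the lines 218 and 141. Each knockdown library lay above both shNS libraries of its time at all 3 times, and line D was the higher of the 2 lines each time. The mean signal in the knockdown was 2.76 times that of shNS at 0 h (974 ± 197 against 353 ± 6.18, SD, n = 2 each), 2.43 times at 8 h (455 ± 28.6 against 187 ± 0.134) and 3.47 times at 12 h (179 ± 54.5 against 51.7 ± 0.793). Taken between single libraries, the ratio ran from 2.34 to 3.19 at 0 h, from 2.32 to 2.54 at 8 h and from 2.70 to 4.27 at 12 h. In bulk RNA, a change in the share of cells at one stage of the cycle and a change in RNA per cell cannot be told apart.

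**Figure D1:**
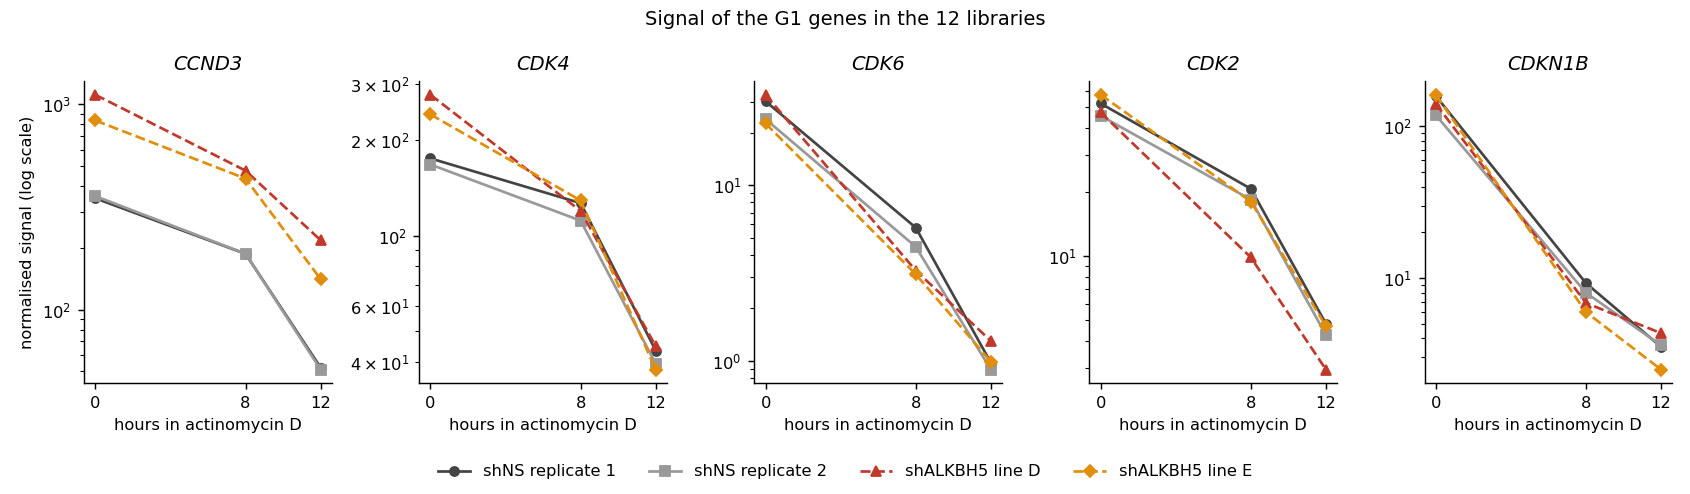
Normalised signal (log scale) against hours in actinomycin D for each of the 5 genes. Solid lines are the 2 shNS replicates, dashed lines are shALKBH5 lines D and E, and each point is 1 library. CCND3 is the gene whose dashed lines lie above the solid ones at 0, 8 and 12 h. CDK4 starts higher in the knockdown (277 and 240 against 175 and 167) and meets the shNS lines at 8 h.

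Across the 3 times, with a correlation within lines estimated from the data, CCND3 was higher in the knockdown by 1.49 on the log2(signal + 1) scale (SE 0.19, adjusted p = 1.26e-05, limma, higher in both lines at each time). The difference of CCND3 exceeded that of 99.9% of genes. In the same comparison 5.45% of all genes passed the test as higher and 4.19% as lower, and 1 of the 5 genes passed. An ordering of the libraries like that of CCND3, with every knockdown library above both shNS libraries at all 3 times, was seen in 9.15% of all genes. At 0 h alone, CCND3 was higher by 1.45 (SE 0.23, adjusted p = 0.0189, limma), where 1.33% of all genes passed as higher and 0.136% as lower, and the median gene was higher by 0.23. Relative to that median, CCND3 stood 1.22 higher. The test passed 127 genes as higher and 13 as lower at 0 h, and with median-of-ratios scaling 9 and 26. The call across times was kept in all 23 alternatives run, the fit on the mean of each line among them, with differences of 1.29 to 1.76. The call at 0 h was less stable: it was lost with median-of-ratios scaling (1.19, adjusted p = 0.0559), and when 1 of 5 libraries was left out. The adjusted p became 0.268 and 0.198 on leaving out shNS replicate 1 and 2 of 0 h, 0.0556 and 0.0552 on leaving out those of 8 h, and 0.162, with a difference of 1.24, on leaving out line D of 0 h.

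CDK4, which binds D cyclins, had higher signals in both knockdown lines before the drug, with a difference that did not pass the threshold. Before the drug its signal was 175 and 167 in the shNS pair, against 277 and 240 for lines D and E. The 8 h values were 126 and 111 for shNS and 119 and 129 for the lines. The 12 h values were 43.5 and 39.5 for shNS and 44.9 and 37.9 for the lines. The groups did not overlap at 0 h, where the ratio of means was 1.51, and they overlapped at 8 h (1.04) and 12 h (0.998). Both knockdown libraries above both shNS libraries at 0 h was a common pattern, seen in 46.4% of all genes, and 2 of the 5 genes, CCND3 and CDK4, had it. The limma difference of CDK4 at 0 h was 0.59 (SE 0.19, unadjusted p = 0.00872, adjusted p = 0.117), or 0.36 above that of the median gene. With the line as a replicate block the same difference had an adjusted p of 0.00281. That fit takes the 4 lines as fixed, so its error holds only the scatter within lines, and it passed 2602 genes as higher against 127 without the block. Set against shNS 1 line at a time, with 1 library for each line, the 0 h difference of CDK4 was 0.69 for line D and 0.49 for line E. Across the 3 times its difference was 0.22 (SE 0.19, adjusted p = 0.498, limma), and with scaling to ribosomal protein genes it was 0.48 (adjusted p = 0.0167). With that scaling 25.8% of all genes passed as higher across times, against 5.45% without it.

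CDK6, the other partner of the D cyclins, did not differ between the arms at 0 h beyond the spread of the libraries. The shNS pair had signals of 30.1 and 23.8, and lines D and E had 32.8 and 22.5, at either end of the range. At 8 h the shNS values were 5.74 and 4.47, and those of the lines were 3.27 and 3.12, below both shNS libraries. At 12 h the shNS values were 0.975 and 0.892, and those of the lines were 1.30 and 0.989, above both. The ratio of means went from 1.03 at 0 h to 0.625 at 8 h and 1.23 at 12 h. The 12 h values are near the low end of the table, with between 14.7% and 17.5% of genes lower, by library. The log2(signal + 1) difference was 0.02 at 0 h (SE 0.22, adjusted p = 0.969, limma) and -0.12 across times (SE 0.19, adjusted p = 0.723).

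CDK2, the kinase of cyclins E and A, started from signals of 52.2 and 45.7 in the shNS pair and 47.4 and 57.3 for lines D and E. The 8 h signals were 20.7 and 18.4 for shNS and 9.87 and 18.1 for the lines. The 12 h signals were 4.82 and 4.27 for shNS and 2.94 and 4.70 for the lines. Line D was the lowest library at 8 and 12 h, while line E lay just under the shNS libraries at 8 h and between them at 12 h. The difference between knockdown and shNS was 0.09 at 0 h (SE 0.27, adjusted p = 0.877, limma) and -0.22 across times (SE 0.20, adjusted p = 0.523). Taken alone, line D gave -0.48 across times and line E 0.05.

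CDKN1B, the p27Kip1 gene, started at signals of 158 and 118 in the shNS pair and 141 and 161 for lines D and E, with overlapping groups. By 8 h the shNS pair was down to 9.26 and 8.00 and the lines to 6.85 and 5.97. By 12 h the shNS pair had 3.52 and 3.60, and the lines 4.33 and 2.50. The lines lay below shNS at 8 h and on either side of it at 12 h. The difference was 0.14 at 0 h (SE 0.24, adjusted p = 0.770, limma) and -0.11 across times (SE 0.19, adjusted p = 0.773). At 8 h, CDK6, CDK2 and CDKN1B were the 3 of the 5 genes with both knockdown libraries below both shNS libraries, a pattern shared by 42.8% of all genes. CCND3 was the 1 gene with both above at that time, against 10.4% of all genes. At 12 h, CCND3 and CDK6 had both knockdown libraries above, against 33% of all genes.

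With transcription stopped, the 5 mRNAs fell at very different rates in the control cells. In shNS, 53.7% and 52.4% of the 0 h signal of CCND3 was left at 8 h, 72.4% and 66.6% of CDK4, and 39.8% and 40.4% of CDK2. CDK6 kept 19.0% and 18.7%, and CDKN1B kept 5.85% and 6.76%. The median gene kept 42.2% and 41.1%, so CDK4 and CCND3 lay above it, CDK2 close to it, and CDK6 and CDKN1B below it. The order CDK4, CCND3, CDK2, CDK6, CDKN1B was the same in both replicates, and no 2 neighbours in it overlapped. Of all genes, 0.157% and 0.409% kept less than CDKN1B, while 87.2% and 85.2% kept less than CDK4. At 12 h, 24.9% and 23.7% of CDK4 was left, 15.0% and 14.3% of CCND3, 9.24% and 9.36% of CDK2, 3.24% and 3.74% of CDK6, and 2.22% and 3.04% of CDKN1B, where the median gene kept 11.9% and 12.9%.

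**Figure D2:**
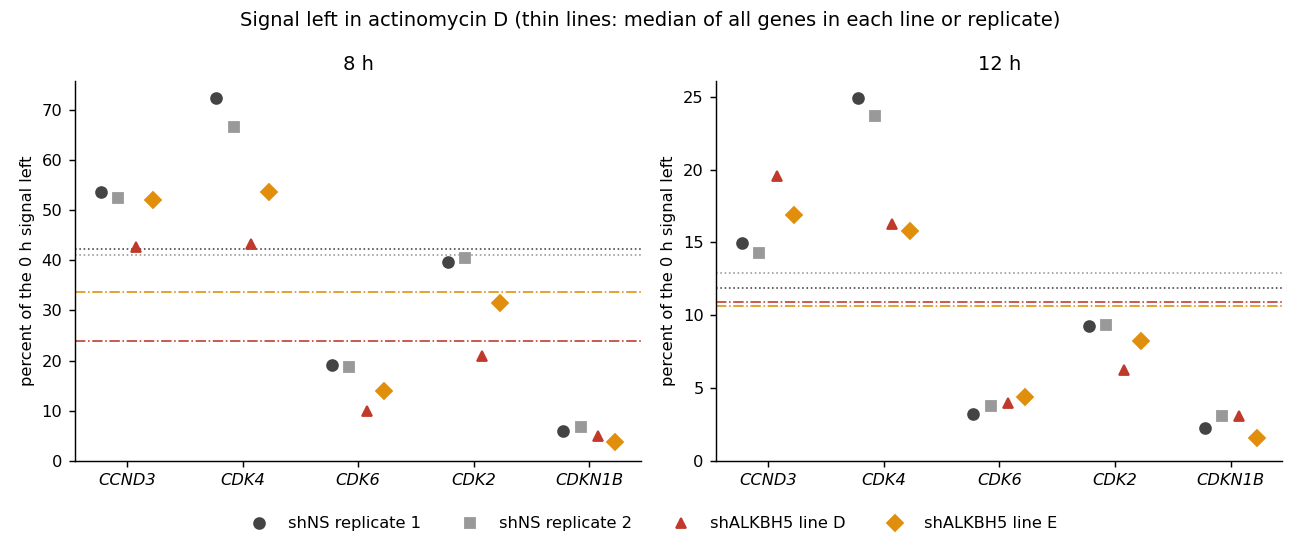
Percent of the 0 h signal left at 8 h (left) and 12 h (right) for the 5 genes, 1 point for each shNS replicate and each shALKBH5 line, with thin horizontal lines at the median of all genes in the same replicate or line. At 8 h CDK4 has the highest points of shNS (72.4% and 66.6%), and CDKN1B has the lowest points in all 4.

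All 5 genes passed the test as lower at 8 h in shNS, as did 82.2% of all genes. The log2(signal + 1) change was -0.91 for CCND3 (adjusted p = 0.00283), -0.52 for CDK4 (adjusted p = 0.0223), -1.28 for CDK2 (adjusted p = 0.000892), -2.20 for CDK6 (adjusted p = 2.42e-06) and -3.84 for CDKN1B (adjusted p = 2.09e-07, all limma), beside a median of -1.15 over all genes. By 12 h all 5 genes and 99.5% of all genes had passed, with changes from -2.02 for CDK4 to -4.92 for CDKN1B and a median of -2.56. These tests depend on the spike-in scale: with median-of-ratios scaling, which sets the median gene near no change by construction, CDK6 and CDKN1B also passed as lower at 8 h (-0.95 and -2.54), CDK2 did not (-0.01, adjusted p = 0.972), CCND3 turned to 0.39 without passing (adjusted p = 0.168), and CDK4 turned to 0.77 and passed as higher (adjusted p = 0.00157). On that scale the 12 h change of CCND3 was 0.24 (adjusted p = 0.358) and that of CDK2 -0.38 (adjusted p = 0.241), and CDK4 passed as higher (0.97, adjusted p = 0.000358). With scaling to ribosomal protein genes the 12 h call of CDK4 was lost (-0.02, adjusted p = 0.931). The 8 h call of CDK4 was also lost with ribosomal protein scaling (-0.13, adjusted p = 0.461) and on leaving out shNS replicate 1 or 2 of 0 h (adjusted p = 0.112 and 0.0713) or shNS replicate 2 of 8 h (adjusted p = 0.137).

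**Figure D3:**
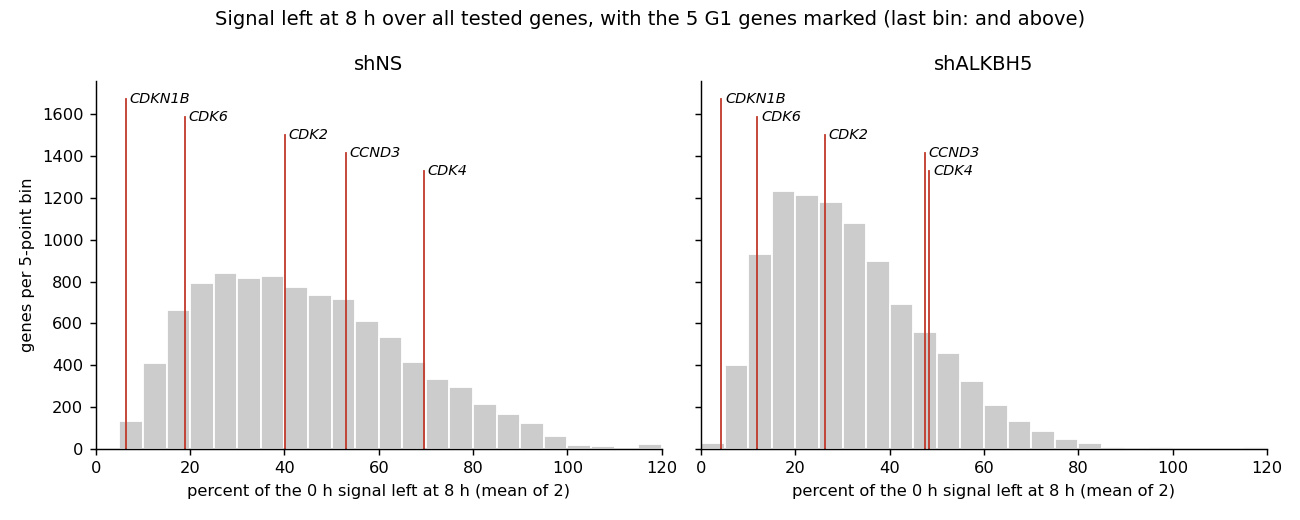
Number of genes by percent of the 0 h signal left at 8 h, in bins of 5 percentage points, for shNS (left) and shALKBH5 (right), each the mean of 2, with red lines at the 5 genes. The last bin also holds all genes with higher values. CDKN1B sits at the lower edge of both distributions, and CDK4 and CCND3 in the upper part.

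CDKN1B lost most of its signal in the first interval and then less than most genes. From 8 to 12 h it kept 38.0% and 45.0% of its 8 h signal in shNS, and 63.2% and 41.9% in lines D and E. The median gene kept 30.0%, 32.9%, 48.1% and 32.9% over the same interval, so CDKN1B was above the median in all 4. CDK6 kept 17.0% and 20.0% in shNS, with 1.05% and 0.798% of genes keeping less, and 39.7% and 31.7% in lines D and E. CDK2 kept 23.2% in both shNS replicates and 29.8% and 26.0% in lines D and E, below the median gene in all 4. At 12 h the signal of CDKN1B was 2.50 to 4.33 by library and that of CDK6 0.892 to 1.30. The lowest gene of each library had 0.338 to 0.433 at that time. What part nearness to these lowest values has in the late ratios was not tested.

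The 3′ untranslated regions (3′ UTRs) of the 5 genes differ in length and in short sequence elements known to bear on mRNA turnover, and are shown for that reason. They were read from GRCh38 with GENCODE 29, using 1 principal transcript for each gene, and 8748 genes of the table had such a region, with a median length of 1038.5 bases. The regions measured 798 bases in CDK4, 1007 in CCND3, 1159 in CDK2, 1344 in CDKN1B and 10219 in CDK6, which is longer than 99.1% of them. Motifs were searched on the transcribed strand: ATTTA, the core of AU-rich elements; TGTANATA, the element bound by Pumilio proteins; and GGACT, 1 form of the sequence in which N6-methyladenosine occurs. Copies of different motifs may overlap. CDKN1B held 7 copies of ATTTA and 2 of TGTANATA. Among the 981 regions whose length was within 1.2 times its own, 81.4% held ATTTA and 8.46% held as many copies, and 26.2% held TGTANATA and 6.63% held as many. CDK6 held 26 copies of ATTTA, and 26.7% of 101 regions of like length held as many. CCND3 and CDK2 held 2 copies of ATTTA each, and CDK4 none. Of regions like theirs in length, 76.5%, 79.9% and 70.4% held at least 1. TGTANATA was absent from CCND3, CDK2, CDK4 and CDK6. It occurred in 20.2%, 23.7%, 17.0% and 78.2% of regions like theirs in length. Whether any motif bears on the fall of these mRNAs was not tested. GGACT was found once in CDK4 and in CDK2 (54.1% and 62.1% of regions of like length held it), in 2 places in CDK6, where 96.0% of regions of like length held as many, and in neither CCND3 nor CDKN1B, where 59.0% and 67.1% held it. A match is a description of these letters and no evidence that a protein or a methyl group sits there.

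The sites below are from CDKN1B, the mRNA that fell most, and from CCND3 and CDK4, which fell less. Each is written 5′ to 3′ on the transcribed strand, as DNA letters, with the motif in capitals. Both Pumilio-type elements of CDKN1B and 2 of its 7 ATTTA sites lie on the plus strand of chromosome 12, and the sites of CCND3 (chromosome 6) and CDK4 (chromosome 12) lie on the minus strand.
CDKN1B TGTANATA, chr12:12721270-12721298: gtactacctgTGTATATAgtttttacctt
CDKN1B TGTANATA, chr12:12722086-12722114: agtgtacctgTGTACATAactctgtaaaa
CDKN1B ATTTA, chr12:12721533-12721561: aagataattgctATTTAtttttacaagaa
CDKN1B ATTTA, chr12:12722126-12722154: ttatactaacttATTTAtgttaaaagatt
CCND3 ATTTA, chr6:41935498-41935526: ggtccctctaaaATTTAatgcatgataga
CCND3 ATTTA, chr6:41935289-41935317: aggctcattttaATTTAttaattgctttg
CDK4 GGACT, chr12:57748144-57748172: acttggaagaagGGACTttcctgcaaaac

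The genes themselves lie at chr12:12715058-12722371 (CDKN1B, plus strand), chr6:41934933-42050357 (CCND3, minus), chr12:57747727-57756013 (CDK4, minus), chr12:55966769-55972784 (CDK2, plus) and chr7:92604921-92836594 (CDK6, minus) on GRCh38.

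In the knockdown lines the 5 mRNAs fell in the same order as in shNS at 8 h, and none of the 5 passed the test for a difference in the fall. At 8 h line D and line E kept 42.7% and 52.1% of CCND3, 43.2% and 53.7% of CDK4, 20.9% and 31.5% of CDK2, 9.95% and 13.8% of CDK6, and 4.87% and 3.70% of CDKN1B. Line D kept less than line E of 4 of the 5 genes, the exception being CDKN1B, and the median gene kept 23.9% and 33.6% in the 2 lines. CDK4 and CCND3 lay within 2 percentage points of each other in both lines. At 12 h CCND3 kept 19.6% and 16.9%, and CDK6 3.95% and 4.39%, both more than in either shNS replicate. CDK4 kept 16.2% and 15.8%, and CDK2 6.21% and 8.20%, both less than in either. CDKN1B kept 3.08% and 1.55%, on either side of shNS, and the median gene kept 10.9% and 10.7%. In shNS the median gene kept 11.9% and 12.9%, so it too, like CDK4 and CDK2, kept less in both lines than in either replicate. The share of all genes with either ordering was not counted.

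The difference between knockdown and shNS in the 0 to 8 h change was -0.17 for CCND3 (SE 0.32, adjusted p = 0.681), -0.53 for CDK4 (SE 0.27, adjusted p = 0.301), -0.55 for CDK6 (SE 0.31, adjusted p = 0.310), -0.61 for CDK2 (SE 0.38, adjusted p = 0.330) and -0.51 for CDKN1B (SE 0.33, adjusted p = 0.336, all limma). The median over all genes was -0.48, so 4 of the 5 genes lay within 0.13 of it, and CCND3 lay 0.31 above. None of the 5, and 0% of all genes, passed the threshold. At an unadjusted p under 0.05, limma had 1560 genes and none of the 5. With the line as a replicate block, 2493 genes passed and again none of the 5. For the 0 to 12 h change the differences were 0.30 for CCND3 (SE 0.32), 0.13 for CDK6 (SE 0.31), -0.22 for CDKN1B (SE 0.33), -0.32 for CDK2 (SE 0.38) and -0.60 for CDK4 (SE 0.27), beside a median of -0.19, with adjusted p-values of 0.985 to 0.987 (limma). Here too 0% of all genes passed. At an unadjusted p under 0.05 there were 337 genes, with CDK4 as 1 of them (unadjusted p = 0.0454), and with the replicate block 222 genes passed, none of them among the 5. With the knockdown reduced to line D, 1 library at each time, the 8 h differences were -0.79 for CDK6, -0.68 for CDK4 and -0.88 for CDK2, and the median gene was at -0.65.

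The 2 knockdown lines differed from each other in CDK2. Averaged over the 3 times, the log2 signal of CDK2 was 0.54 lower in line D than in its counterpart (-0.54, SE 0.18, adjusted p = 0.0162, limma), a difference carried by 8 h (9.87 against 18.1) and 12 h (2.94 against 4.70). In this comparison 29.1% of all genes passed in either direction, and 1 of the 5 genes did. The spread comes from the 12 libraries, and no hairpin was repeated within a time. This fit takes the 3 libraries of a line as independent, so its p-values do not measure the spread between cultures of 1 hairpin. The call was lost on leaving out any of 5 libraries: line D of 8 h (-0.35, adjusted p = 0.0774) or of 12 h (0.0615), and line E of 0 h (0.0737), of 8 h (0.0866) or of 12 h (0.0610). CCND3 was 0.39 higher in line D (SE 0.19, adjusted p = 0.108), CDK6 0.26 higher (adjusted p = 0.274), CDKN1B 0.20 higher (adjusted p = 0.451) and CDK4 0.11 higher (adjusted p = 0.692). The differences of CCND3 and CDK6 passed with median-of-ratios scaling (limma, adjusted p = 0.0190 and 0.0446), where 28% of all genes passed as higher and 24.9% as lower. They also passed on leaving out the 8 h library of line D (0.55, adjusted p = 0.0186, and 0.47, adjusted p = 0.0139).

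The other genes of the G1 pathway gave the setting for these 5. Of a list of 51 cyclins, kinases, inhibitors, pocket proteins, E2F factors, CDK-activating genes and turnover factors, 40 were in the table. CCND1, CDKN2B, CDKN1A, CDKN1C, CCNE1, CCNE2, E2F5, E2F7, CDC25A, FBXO31 and AMBRA1 were not analysed here. At 0 h, CCND3 was the 1 of the 40 genes to pass the test as higher, and none passed as lower (limma). Of all genes, 1.33% passed as higher and 0.136% as lower. The median difference of the 40 genes was 0.24, beside 0.23 over all genes. CCND2, the other D cyclin in the table, had 0 h signals of 24.6 and 21.3 for the shNS pair and 31.0 and 28.1 for the lines, and differences of 0.35 at 0 h and -0.07 across times, neither past the threshold. With the replicate block, 12 of the 40 passed as higher at 0 h, where 27.3% of all genes did.

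Across times 2 of the 40 genes passed as higher, CCND3 and CDKN2C, and 1 as lower, CKS1B, beside 5.45% and 4.19% of all genes, with a median of -0.04. CDKN2C, which encodes the CDK4 and CDK6 inhibitor p18INK4c, was higher by 0.63 (SE 0.18, adjusted p = 0.0243, limma). At 0 h the shNS pair had 29.3 and 27.8, and lines D and E had 54.0 and 37.0. CKS1B, the cofactor with which SKP2 targets p27Kip1 for degradation, was lower by 0.73 (-0.73, SE 0.20, adjusted p = 0.0194, limma), with 0 h signals of 241 and 231 for the shNS pair and 180 and 216 for the lines. Both calls were lost when each line was reduced to its mean (adjusted p = 0.0791 and 0.0641), on dropping either drug time, and on leaving out shNS replicate 1 of 12 h (adjusted p = 0.0625 and 0.0622). CKS1B also lost its call on leaving out line D of 8 h (adjusted p = 0.127). The call of CDKN2C was lost on leaving out any of 4 further libraries: line D of 8 h (adjusted p = 0.0540), line D of 12 h (0.0553), shNS replicate 1 of 0 h (0.0557) and shNS replicate 2 of 8 h (0.0718). SKP2 itself had a difference of -0.16 (SE 0.18) and the pocket protein gene RB1 one of -0.73 (SE 0.24, adjusted p = 0.0540), neither past the threshold.

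**Figure D4:**
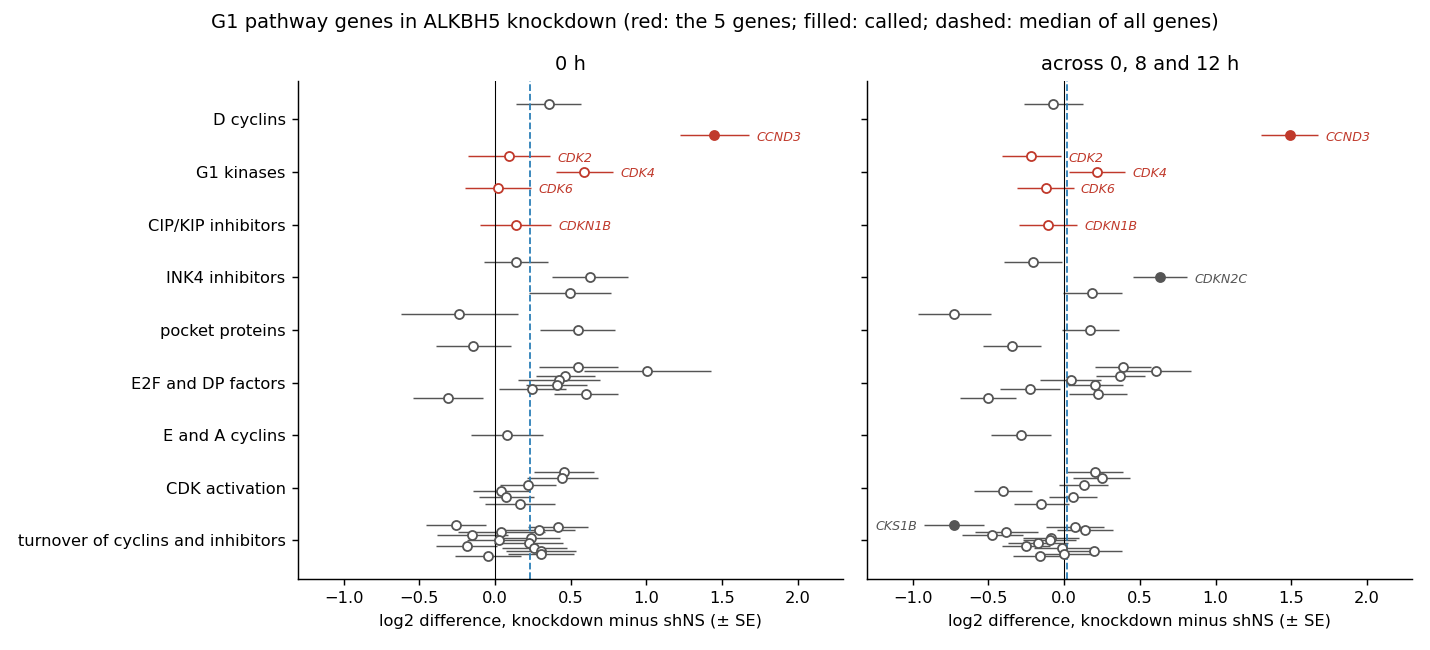
Log2 difference, knockdown minus shNS (with SE), of the 40 G1 pathway genes by role, at 0 h (left) and across the 3 times (right). Red marks the 5 genes, filled points passed the adjusted p threshold of 0.05, and the dashed line is the median of all genes (0.23 and 0.02). CCND3 stands apart to the right in both panels, at 1.45 and 1.49.

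For the differences in the 8 h and 12 h changes, 0 of the 40 pathway genes and 0% of all genes passed (limma). With the replicate block 15 of the 40 passed as lower for the 8 h change and 1 for the 12 h change, beside 26.1% and 2.19% of all genes. In shNS, 36 of the 40 passed as lower at 8 h and all 40 at 12 h, beside 82.2% and 99.5% of all genes. The median pathway gene kept 37.4% and 36.2% of its signal at 8 h in shNS, and 15.8% and 27.3% for lines D and E, in each case below the median of all genes. Between the lines, 9 of the 40 passed, 5 higher in line D and 4 lower, where 29.1% of all genes passed. That fit takes the libraries of a line as independent. Beside CDK2, these included E2F2 (1.10, adjusted p = 1.27e-08, 0 h signals 32.3 and 12.7 for lines D and E, beside 9.75 and 9.54 for shNS) and RB1 (-0.86, adjusted p = 3.83e-05), which passed in all alternatives run. CUL4A (0.63), E2F1 (0.55), CDKN2D (-0.50), E2F4 (-0.49) and CDKN2C (0.48) also passed, and each was lost when 1 or more single libraries were left out.

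Downstream of the pathway, no gene of a list of 23 E2F targets of DNA synthesis passed at 0 h (limma). At that time 1.33% of all genes passed as higher and 0.136% as lower. The 23 genes had a median difference of 0.44, beside 0.23 over all genes. Across times 3 of the 23 passed as higher and 1 as lower, with a median of 0.12, where 5.45% and 4.19% of all genes passed. Between the lines 9 were higher in line D and 0 lower, where 14.2% and 14.9% of all genes passed. Of 18 genes of G2 and mitosis, 0 passed at 0 h (median 0.03). Across times 0 passed as higher and 3 as lower (median -0.29), and between the lines 4 were higher and 1 lower in line D. In each comparison the shares of all genes are those given for the 23 E2F targets. No gene of either list passed for the differences in the fall, where 0% of all genes passed.

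The genes whose pattern was most like each of the 5 were found by Pearson correlation over the 12 libraries, after the median of all genes was subtracted in each library. The libraries share their time course and their lines, so these coefficients are descriptions. CCND3 was most like PPP1R18 (r = 0.983), DYNLT1 (0.977) and NGRN (0.973), and the difference of these 3 genes across times was 0.71, 0.95 and 0.59. CDK4 was most like RABL6 (0.993), GYPC (0.992) and SEC61A1 (0.991), which kept 21.8% to 29.9% of their signal at 12 h in shNS. CDKN1B was most like HOXA13 (0.989), ARID1A (0.989) and ZNF266 (0.988), which kept 3.17% to 4.86%. CDK6 was most like FAM208A (0.983), SAP30 (0.979) and RIF1 (0.977), and CDK2 most like CDCA7L (0.978), CHCHD3 (0.969) and UBQLN1 (0.967). Among the 5 genes, CDK6 and CDKN1B went together (r = 0.916), and CDK4 ran opposite to both (-0.855 and -0.898).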

How the data were processed

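The 12 libraries hold poly(A) RNA. The authors deposited 1 table of normalised signal per gene symbol, with ERCC rows. STAR, RSEM and GRCh38 are named in the submitters' processing notes, without version or setting, and the unit before scaling is likewise not stated in the sources used here. From its even ERCC median the table is apparently scaled to the spike-ins, which no label states. Levels were therefore not compared between genes, and the depth and its precision are unknown.

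Titles gave the groups. They name ALKBH5 hairpins and actinomycin D, although the labels' treatment protocol speaks of FTO lentivirus, CS1 and CS2. The sources used here do not tie the letters D and E to hairpin numbers.

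All 9529 genes had a mean signal of at least 1 and were tested with limma 3.58.1 in R 4.3.3 (trend, empirical Bayes) on log2(signal + 1), which understates changes of low genes, with Benjamini-Hochberg adjustment over all 9529 genes and a threshold of 0.05. Fits within times and of changes used 6 group means. The difference across times had time as a factor and a correlation within lines estimated at 0.251. Line D minus line E took shNS as 1 line, with time as a factor and no correlation within lines. Alternatives were a filter at a mean signal of at least 5, a pseudocount of 0.1, and scaling by median of ratios, ribosomal protein genes or the ERCC mean. Others were the replicate block, each line alone, and leaving out libraries or times. The script was tested on simulated data.

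The 5 genes were named in every comparison, with the called genes of the G1 pathway list (the 8 with the largest change at most), the 3 genes most correlated with each, and ALKBH5. CCND2, SKP2 and the difference of RB1 across times fall outside that rule and were chosen after their values were seen. The genes and lists were chosen with earlier results of these data known. In the pairing check, deviations from the group means correlated between times at 0.657 to 0.900 for lines D and E, and at 0.0651 to 0.271 for the shNS numbers. The letters D and E recur in the headers at each time, whereas the titles give the hairpins by number.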

Additional observations from a re-analysis of the deposited data

Results flagged for a closer look

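CDK2 was flagged because it differed between the 2 knockdown lines. The fitted difference, line D minus line E over the 3 times, was -0.54 on the log2(signal + 1) scale (adjusted p = 0.0162, limma). That fit takes the 3 libraries of a line as independent. Line D had the lower signal at 0 h (47.4 against 57.3), 8 h (9.87 against 18.1) and 12 h (2.94 against 4.70). At 8 h, 20.9% and 31.5% of the CDK2 signal was left in the 2 lines, beside 23.9% and 33.6% for the median gene. The 8 h signal of ALKBH5 was 1.52 and 4.29 for lines D and E, and its part in the difference was not tested. Groups of 2 are too small to look for single outlying libraries.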

How the results depend on the processing

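Median-of-ratios scaling, which sets the median gene near 0, moved most values. At 0 h it gave CDK6 -0.21, CDK2 -0.15 and CDKN1B -0.11, and 0 of the 5 genes passed. For the fall in shNS it gave CCND3 0.39 and CDK4 0.77 at 8 h and 0.24 and 0.97 at 12 h, with 3 of the 5 passing each time. For the difference in the 8 h change it gave CCND3 0.38, CDK4 0.024 and CDKN1B 0.000326. Between the lines 3 of the 5 genes passed on that scale, where 28% of all genes passed as higher and 24.9% as lower. Ribosomal protein scaling, from 104 genes, gave CDK6 -0.0013 at 0 h. Across times it gave CDK6 0.10, CDK2 0.026 and CDKN1B 0.12, and 2 of the 5 genes passed, where 25.8% of all genes passed as higher. It gave CCND3 0.40 and CDK4 0.045 for the 8 h difference, and CDKN1B 0.039 for the 12 h difference. A line alone leaves 1 knockdown library at each time, assumed to vary like shNS, and its calls are common: 65.6% of all genes passed as lower for the 8 h difference with line D. With line D alone, CDK2 was -0.043 at 0 h and CDK6 0.00821 across times. For the 12 h difference CDK6 and CDKN1B were -0.033 and 0.19 with that line. With line E alone, CDK6 was -0.24 at 0 h and CDK2 0.053 across times. Without the 8 h libraries CDK6 was 0.083 and CDKN1B 0.029 across times. With the replicate block 2 of the 5 genes passed at 0 h (CCND3 and CDK4), and no other call of the 5 changed. No knockdown library could be paired with an shNS library, because an shNS number and a hairpin share no source. Changes over time were paired within lines only in the fits with the replicate block.

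Leaving out 1 library at a time, the 0 h differences ran from -0.24 to 0.28 for CDK6, -0.043 to 0.23 for CDK2 and -0.071 to 0.34 for CDKN1B, with 0 to 1 genes passing. The 8 h difference of CCND3 ran from -0.38 to 0.037. For the 12 h difference CCND3 ran from -0.016 to 0.61, CDK6 from -0.14 to 0.39 and CDKN1B from -0.52 to 0.089. Between the lines CDK4 ran from -0.045 to 0.24, with 0 to 2 genes passing. A fit without the filter was not run, because all genes had a mean of at least 1.30 and the filter removed none.

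Counts over all genes moved more than those of the 5. At 0 h, 127 passed as higher and 13 as lower, against 71 higher with a mean of at least 5, 16 and 2 with a pseudocount of 0.1, 15 and 7 with ribosomal protein scaling, 83 higher with the ERCC mean, 2602 and 333 with the block, 4132 and 874 with line D alone and 1774 and 304 with line E alone. Across times, 519 and 399 became 2459 and 211 with ribosomal protein scaling, 1137 and 871 with 12 independent libraries, 259 and 231 with line means, and 155 higher without the 12 h libraries. In shNS the median-of-ratios scale gave 1804 and 2245 at 8 h and 2341 and 2573 at 12 h. The cause of these shifts was not tested.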
